A study of Mus musculus with 59 samples.

Results

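The genes described here are 32 sterol genes chosen by name, out of 18088 genes in the deposited table of mouse prefrontal cortex RNA sequencing. They encode enzymes of cholesterol synthesis, the proteins that control SREBP (sterol regulatory element-binding protein) transcription factors, other known SREBP targets, and exporters of sterol. Members were chosen by gene symbol, with earlier results of these data known, and all 32 were found in the table. The counts that follow may depend on that choice. Averaged over genotype and sex, 19 of the 32 were lower after fluoxetine than after vehicle and none was higher, where 6.6% of all genes tested were lower. After lithium 6 were lower and none was higher, where 5.74% of all genes tested were lower.

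Cholesterol in the brain is made locally, because the blood-brain barrier keeps lipoprotein cholesterol of the blood out. Acetyl-CoA is built up to mevalonate and then to isoprenoid units, which are joined into squalene, closed into lanosterol and trimmed in several steps to cholesterol. When sterol in the endoplasmic reticulum is low, the escort protein SCAP carries SREBP to the Golgi, where proteases release the part that enters the nucleus and activates genes of the whole pathway. INSIG proteins hold SCAP and SREBP back when sterol is plentiful. Demand for cholesterol in the rodent cortex is high in the weeks after birth, when oligodendrocytes form myelin and astrocytes supply neurons.

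All mice were C57BL/6J and were analysed at postnatal day 25, after treatment from postnatal day 3 to 24 through the mother's milk. The 12 groups were, for each sex, HT mice given fluoxetine, HT mice given lithium, HT mice given vehicle, WT mice given fluoxetine, WT mice given lithium and WT mice given vehicle. HT mice are heterozygous for Ash1l, a gene for a histone methyltransferase, and the labels do not describe the allele; WT mice are wild type. Fluoxetine is a selective serotonin reuptake inhibitor and lithium is a mood stabiliser, and neither dose is given in the labels. Each group held 5 libraries, except HT lithium females with 4, which gave 20 fluoxetine, 19 lithium and 20 vehicle libraries, or 29 HT and 30 WT libraries. Litters, dams and cages are not labelled although each drug was given to the mother. P-values therefore reflect only how these samples spread, and drug and litter cannot be told apart.

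Values are normalised read counts, that is, read counts divided by the library's size factor, and depth ran from 24.47 to 36.32 M reads per library (median 27.98 M). The excitatory neuron marker Slc17a7 reached at least 28945 in every library, while the striatal marker Drd1 had a median of 192 and a highest value of 833. Median and highest values were 32 and 381 for the striatal marker Drd2, and 22 and 7177 for the choroid plexus marker Ttr. Ash1l checked the genotype labels: it lay between 3641 and 4382 in the HT libraries, while 1 library labelled WT, vehicle female replicate 3, stood against its label at 3557. Across strata Ash1l was lower in HT than in WT by -0.31 ± 0.023 on the log2 scale (standard error, limma, adjusted p = 6.49e-15). By stratum the difference lay between -0.30 and -0.40 and passed in 5 of 6, and in vehicle females, which hold the library against its label, it was -0.11 ± 0.056 and did not pass (limma, adjusted p = 0.21). That library also had the lowest normalised total, 26.68 M, and WT vehicle male replicate 2 had the highest, 32.07 M. WT vehicle male replicate 2 held the highest value of all 59 libraries for Hmgcs1, Idi1, Sqle, Cyp51, Sc5d and Fdft1, so counts are also given without these libraries where they changed.

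All 32 genes were well measured, and the lowest recovered count of any of them in any library was 256 reads, for Ebp. Per kilobase of the longest transcript, mean normalised counts ran from 118.9 for Lpin1, a phosphatidate phosphatase, to 2898 for Hmgcs1, the cytosolic HMG-CoA synthase. Next in this per-length order came the fatty acid desaturases Fads1 with 1677 and Fads2 with 1545, then Srebf2 with 1232. Among the synthesis enzymes below Hmgcs1 the per-length levels ran from 158.8 for Hsd17b7 to 721.2 for Msmo1. Exons of 10 of the 32 genes overlap another annotated gene, 8 of them on the opposite strand, including Hmgcs1, Idi1, Cyp51, Fdft1 and Ggps1. The overlap was 557 bases for Hmgcs1, 323 for Idi1, 166 for Cyp51, 774 for Fdft1 and 257 for Ggps1. The largest was 1124 bases, for Fdps on the same strand. The strand setting of the counting is not given in the sources used here. The library kit was stranded, but whether reads in opposite-strand overlaps were kept apart between neighbour and member is therefore not known. In overlaps on the same strand such reads cannot be told apart by strand.

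The promoters of Hmgcs1 and Idi1 are shown first because SREBP acts at promoters and these 2 genes had the largest changes among the mevalonate enzymes after fluoxetine. Both windows are RefSeq sequence on GRCm38.p6 and span 250 bases before to 50 bases from the annotated start. Capitals mark the letters searched on both strands, which were TCACNCCAC for the sterol regulatory element and CCAAT, read as ATTGG on the other strand, for the box bound by NF-Y, a known partner of SREBP.
Hmgcs1, chr13:119690101-119690400, plus strand: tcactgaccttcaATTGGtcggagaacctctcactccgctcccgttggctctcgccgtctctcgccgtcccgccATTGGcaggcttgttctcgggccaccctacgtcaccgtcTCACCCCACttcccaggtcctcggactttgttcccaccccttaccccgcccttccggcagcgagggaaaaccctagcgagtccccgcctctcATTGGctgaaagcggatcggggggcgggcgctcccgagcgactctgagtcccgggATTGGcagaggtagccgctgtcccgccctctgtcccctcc
Idi1, chr13:8885356-8885655, plus strand: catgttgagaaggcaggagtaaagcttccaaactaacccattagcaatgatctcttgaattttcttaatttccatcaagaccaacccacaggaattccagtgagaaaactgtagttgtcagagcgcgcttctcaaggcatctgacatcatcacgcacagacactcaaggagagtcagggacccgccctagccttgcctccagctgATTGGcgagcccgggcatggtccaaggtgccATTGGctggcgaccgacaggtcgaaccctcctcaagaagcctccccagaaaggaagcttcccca
In Hmgcs1 the sterol element letters lay from 137 to 129 bases before the start, with CCAAT letters at 4 other places. Of the 26 members with a window in the table, Hmgcs1 alone held TCACNCCAC (3.85%), against 1.44% of 27025 gene symbols in the whole table. CCAAT letters were in 20 of the 26 (76.9%), against 41.1% of all symbols, and Idi1 held 2 matches. Idi1 does not meet the rule that chose promoters to print, and it was added after its values were seen. Sqle, Fdft1, Stard4, Fads1, Abcg1 and Fdps had no window. A match of letters is a description and not a measured binding site.

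Fluoxetine was compared with vehicle to ask how exposure to the drug before weaning changed the cortical transcriptome. The average over the 4 strata of genotype and sex put 19 of the 32 genes lower and 0 higher, with adjusted p under 0.05 by limma over 17875 genes tested. Over all genes tested, 6.6% were lower and 6.94% higher in the same comparison. The median log2 fold change was -0.132 over the 32 genes and 0.007 over all genes. By role, 5 of 8 mevalonate and isoprenoid enzymes, 9 of 11 squalene and sterol enzymes, 2 of 5 control genes, 3 of 6 other targets and 0 of 2 exporters were lower. No exporter had an unadjusted p under 0.05, and edgeR gave 19 lower genes in all and DESeq2 20.

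**Figure D1:**
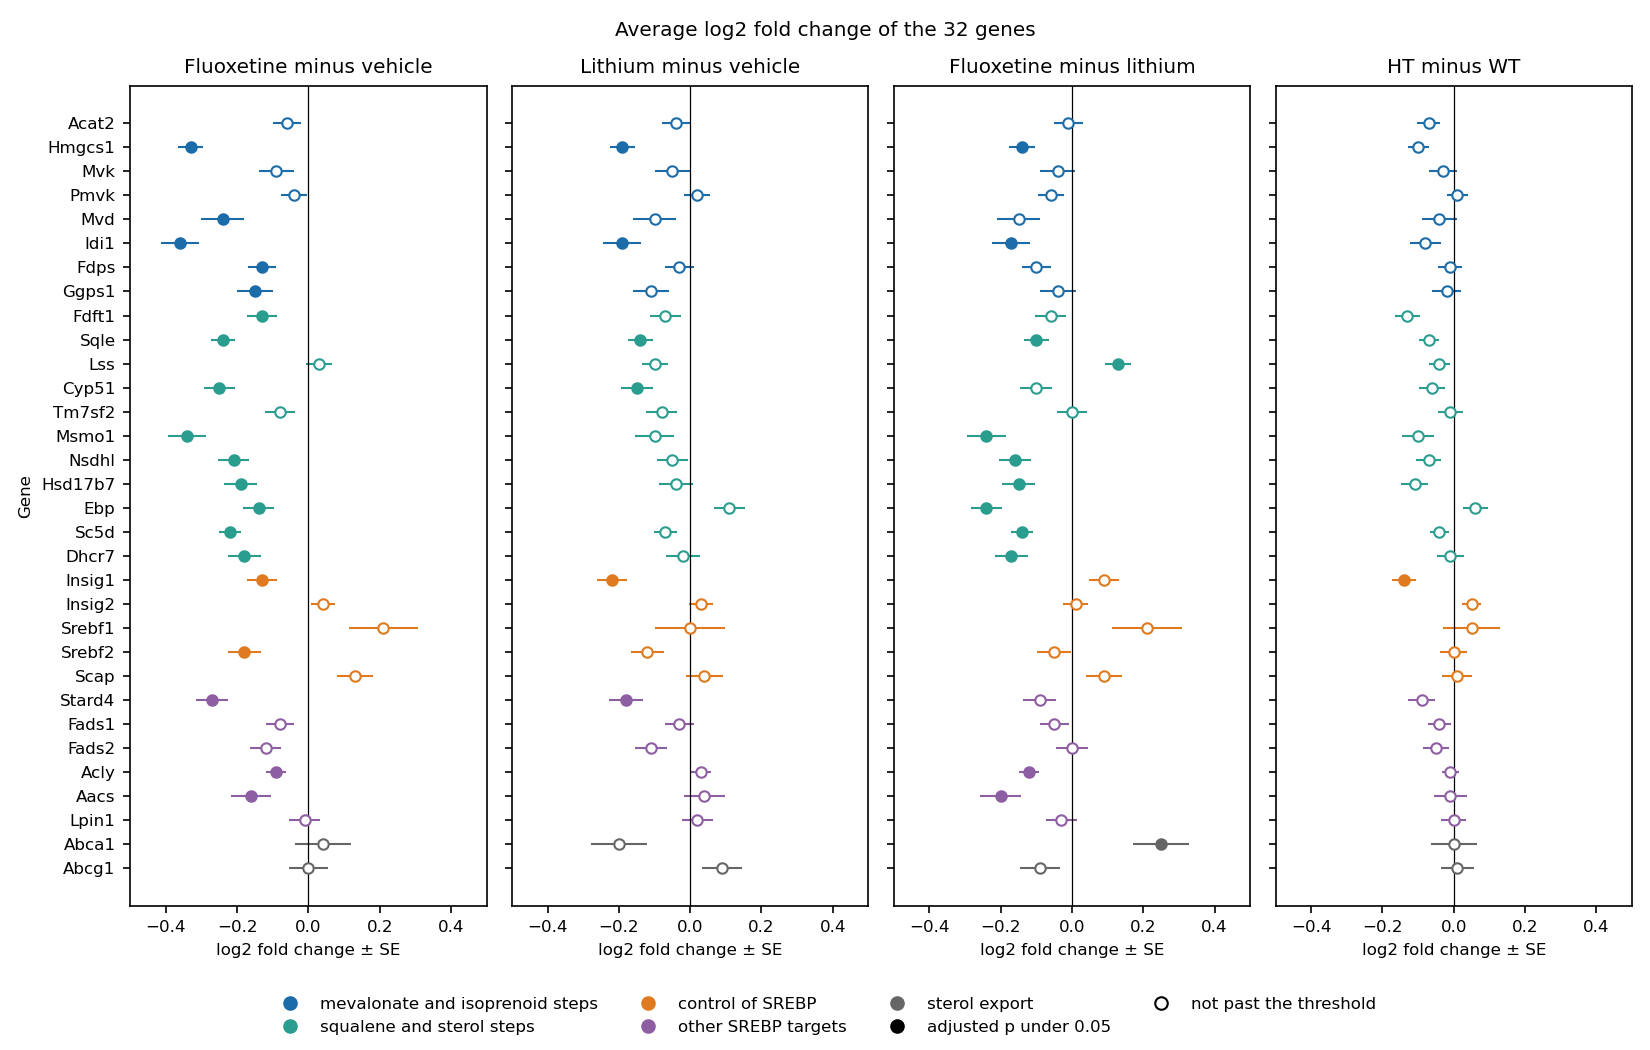
Average log2 fold change ± standard error of each of the 32 genes, in rows by role, for fluoxetine minus vehicle, lithium minus vehicle, fluoxetine minus lithium and HT minus WT; filled points passed an adjusted p of 0.05 (limma). Filled points lie left of 0 for 19 genes in the first panel and for 6 in the second, and 2 genes, Lss and Abca1, are filled right of 0 in the third.

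Among the mevalonate enzymes, Hmgcs1 (ENSMUSG00000093930, chromosome 13, 119690379 to 119708260, plus strand), which makes HMG-CoA, had normalised counts with lowest, median and highest values of 6414, 9021 and 10465 in fluoxetine libraries, against 9794, 10989 and 14963 in vehicle libraries. The ranges overlapped, and 20 of 20 fluoxetine libraries lay below the vehicle mean of their own genotype and sex. Hmgcs1 fell by 20.3% (log2 fold change -0.33 ± 0.036, limma, adjusted p = 4.68e-09). Idi1 (ENSMUSG00000058258, chromosome 13, 8885501 to 8892451, plus strand), the isomerase that balances the isoprenoid building blocks, had lowest, median and highest counts of 944, 1562 and 2010 in fluoxetine libraries, against 1811, 2020 and 2861 in vehicle libraries. Again all 20 fluoxetine libraries lay below their vehicle mean, and the lowest count came from HT fluoxetine male replicate 4. The fall of Idi1 was 22.2% (-0.36 ± 0.053, limma, adjusted p = 3.61e-06). The decarboxylase Mvd fell by 15.5%, and the prenyl diphosphate synthases Fdps and Ggps1, which make farnesyl and geranylgeranyl diphosphate, fell by 8.6% and 9.7%. The thiolase Acat2, mevalonate kinase Mvk and phosphomevalonate kinase Pmvk did not pass, with log2 fold changes of -0.06, -0.09 and -0.04. Because genes given in full were picked by their p-values, the counts of libraries on one side come from the same data and are not independent support.

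Among the squalene and sterol enzymes, Sqle (ENSMUSG00000022351, chromosome 15, 59315077 to 59331192, plus strand), squalene epoxidase, had lowest, median and highest counts of 1363, 1739 and 2021 in fluoxetine libraries, against 1863, 2043 and 2537 in vehicle libraries. Of the fluoxetine libraries most lay under the lowest vehicle library, and 20 of 20 lay below their vehicle mean. Sqle fell by 15.3% (-0.24 ± 0.035, limma, adjusted p = 3.29e-06). Sc5d (ENSMUSG00000032018, chromosome 9, 42251595 to 42264256, minus strand), a sterol desaturase late in the pathway, had 1725, 2281 and 2652 in fluoxetine libraries, against 2399, 2613 and 3365 in vehicle libraries. It too was below the vehicle mean of its stratum in 20 of 20 libraries, and fell by 14.0% (-0.22 ± 0.031, limma, adjusted p = 3.29e-06). Msmo1 (ENSMUSG00000031604, chromosome 8, 64718139 to 64733792, minus strand), a methylsterol oxidase, had the largest fall of this role, 21.0% (-0.34 ± 0.054, limma, adjusted p = 1.56e-05). Its counts were 1071, 1861 and 2441 in fluoxetine libraries, against 1890, 2321 and 2845 in vehicle libraries, with 18 of 20 libraries below their vehicle mean.

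The lanosterol demethylase Cyp51 (ENSMUSG00000001467, chromosome 5, 4081145 to 4104746, minus strand) had lowest, median and highest counts of 1237, 2019 and 2243 in fluoxetine libraries, against 2029, 2279 and 3348 in vehicle libraries. Cyp51 fell by 15.7% (-0.25 ± 0.044, limma, adjusted p = 1.01e-04), and 19 of 20 fluoxetine libraries were below their vehicle mean. Nsdhl (ENSMUSG00000031349, chromosome X, 72918557 to 72958514, plus strand), a sterol dehydrogenase, had 462, 594 and 694 in fluoxetine libraries, against 624, 689 and 824 in vehicle libraries. Nsdhl fell by 13.8% (-0.21 ± 0.043, limma, adjusted p = 5.56e-04), again in 19 of 20 libraries. Smaller falls were those of the ketoreductase Hsd17b7 by 12.4%, the final reductase Dhcr7 by 11.9%, the sterol isomerase Ebp by 9.1% and squalene synthase Fdft1 by 8.9%. Lanosterol synthase Lss (0.03 ± 0.036) and the sterol reductase Tm7sf2 (-0.08 ± 0.042) did not pass.

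**Figure D2:**
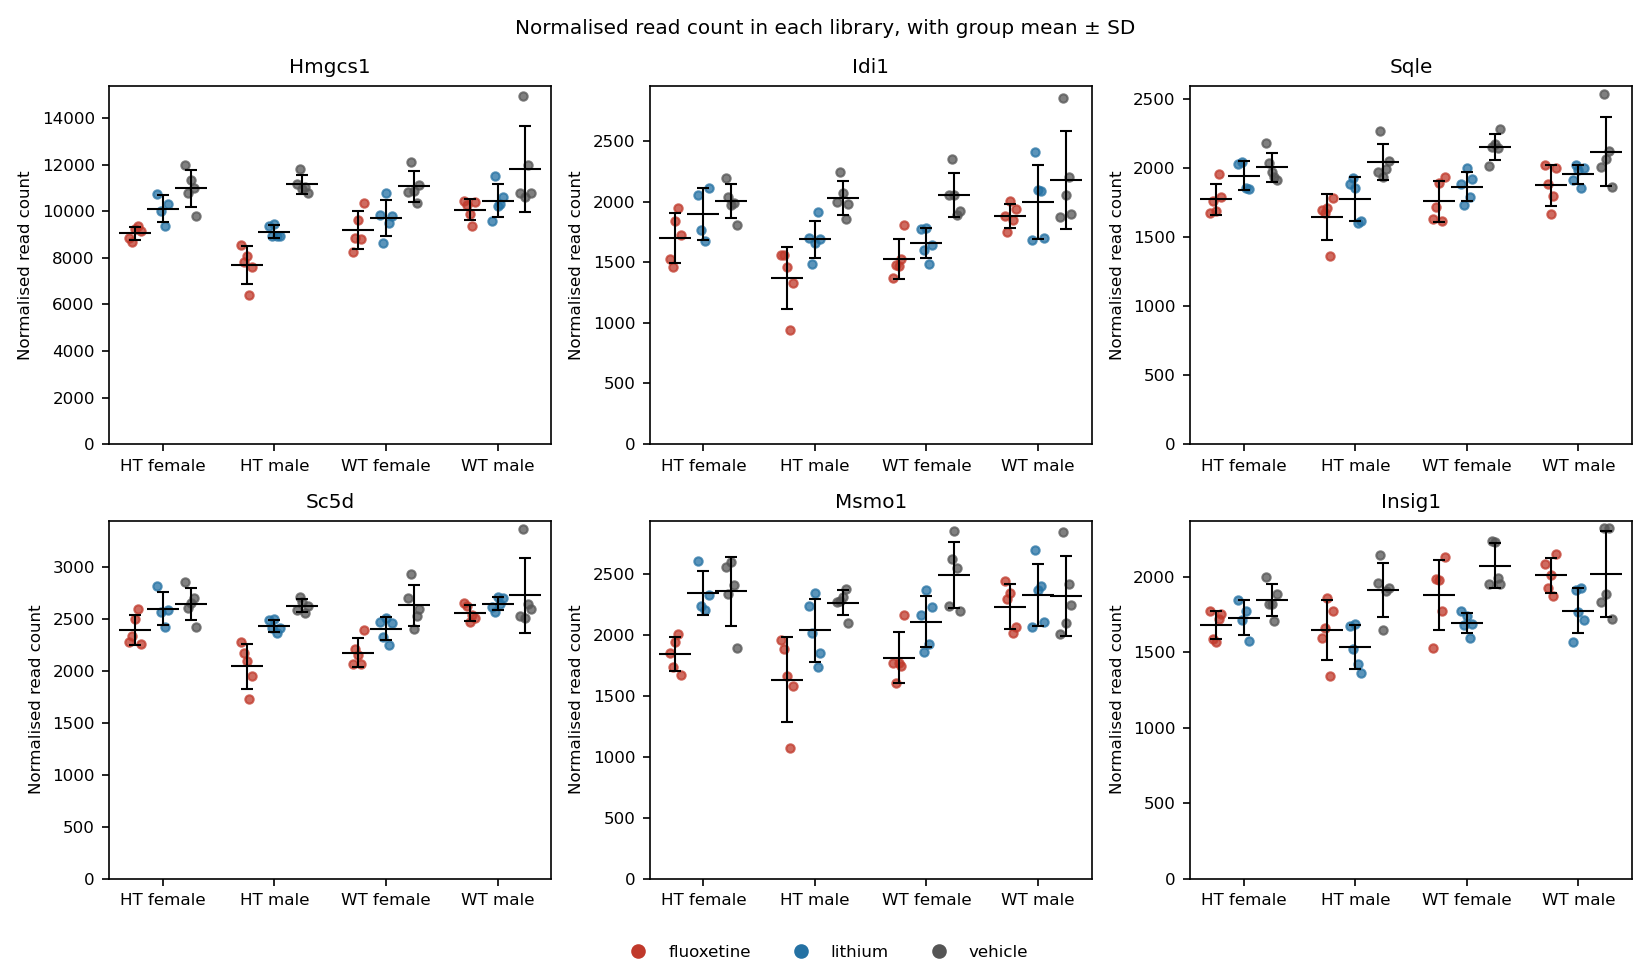
Normalised read counts of Hmgcs1, Idi1, Sqle, Sc5d, Msmo1 and Insig1 in each library (points), with group mean and standard deviation (bars), by genotype and sex, with fluoxetine, lithium and vehicle from left to right in each set. Group means of Hmgcs1 are lower with fluoxetine than with vehicle in each of the 4 sets, and single points stand apart in HT fluoxetine males (1363 for Sqle) and WT vehicle males (3365 for Sc5d).

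The control genes did not move as a block. Srebf2 (ENSMUSG00000022463, chromosome 15, 82147181 to 82205379, plus strand), which encodes the SREBP that drives cholesterol synthesis, had lowest, median and highest counts of 4598, 5864 and 7517 in fluoxetine libraries, against 5304, 6780 and 7500 in vehicle libraries. The ranges overlapped almost fully, and Srebf2 fell by 11.6% (-0.18 ± 0.046, limma, adjusted p = 0.00745). Insig1 fell by 8.3% (-0.13 ± 0.041, limma, adjusted p = 0.0329). Insig2, Srebf1, which encodes the SREBP forms tied to fatty acid synthesis, and the escort gene Scap had log2 fold changes of 0.04, 0.21 and 0.13 that did not pass, although the unadjusted p was under 0.05 for Srebf1 and Scap. Of the other targets, the sterol carrier Stard4 (ENSMUSG00000024378, chromosome 18, 33199355 to 33213862, minus strand) had 622, 791 and 963 in fluoxetine libraries, against 694, 946 and 1166 in vehicle libraries. Stard4 fell by 17.3% (-0.27 ± 0.046, limma, adjusted p = 3.86e-05), in 19 of 20 libraries. Acetoacetyl-CoA synthetase Aacs fell by 10.8% and ATP citrate lyase Acly by 6.0%, whereas Fads1 (-0.08), Fads2 (-0.12) and Lpin1 (-0.01) did not pass. The exporters Abca1 and Abcg1, targets of the liver X receptors, had log2 fold changes of 0.04 and -0.00.

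The count of 19 lower genes was 14 when HT fluoxetine male replicate 4, WT vehicle male replicate 2 and the library labelled WT vehicle female replicate 3 were left out together, and these 14 were all among the 19. Ggps1, Fdft1, Ebp, Insig1 and Acly were the 5 that then missed the threshold. Hmgcs1 was then lower by -0.29 ± 0.030 (limma, adjusted p = 2.98e-09) and Idi1 by -0.30 ± 0.045 (limma, adjusted p = 5.45e-06). With only the WT vehicle libraries left out, 16 genes were lower.

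Lithium against vehicle gave 6 lower genes and 0 higher, with 13 members at an unadjusted p under 0.05, and edgeR gave 6 lower and DESeq2 8 lower. Over all genes tested, 5.74% were lower and 7.39% higher. The median log2 fold change was -0.062 over the 32 genes and 0.004 over all genes. The lower genes were the enzymes Hmgcs1, Idi1, Sqle and Cyp51, the control gene Insig1 and the carrier Stard4. By role this was 2 of 8 mevalonate and isoprenoid enzymes, 2 of 11 squalene and sterol enzymes, 1 of 5 control genes, 1 of 6 other targets and 0 of 2 exporters. Both drugs were compared with the same vehicle libraries, so the 2 sets of calls are not independent.

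Insig1 (ENSMUSG00000045294, chromosome 5, 28071363 to 28078662, plus strand), whose product retains SCAP in the endoplasmic reticulum and which is itself an SREBP target, had lowest, median and highest counts of 1361, 1686 and 1922 in lithium libraries, against 1643, 1936 and 2321 in vehicle libraries. The groups overlapped, and 18 of 19 lithium libraries lay below the vehicle mean of their stratum. Insig1 fell by 14.2% after lithium (-0.22 ± 0.042, limma, adjusted p = 2.27e-04), with a median of 1770 in fluoxetine libraries beside the lithium median of 1686. Hmgcs1 had 8655, 9786 and 11520 in lithium libraries, against the vehicle values given above, and fell by 12.4% (-0.19 ± 0.036, limma, adjusted p = 2.11e-04), in 19 of 19 libraries. Sqle had 1600, 1887 and 2045 in lithium libraries and fell by 9.3% (-0.14 ± 0.035, limma, adjusted p = 0.00451). Idi1 fell by 12.6%, Stard4 by 11.8% and Cyp51 by 9.9%. The sterol isomerase Ebp was at 0.11 ± 0.043 and did not pass (limma, adjusted p = 0.0921). Without WT vehicle male replicate 2, 9 members passed. Without the 3 libraries named above, 8 were lower, with Srebf2 and Abca1 joining the 6, and Ebp was higher (0.13 ± 0.040, limma, adjusted p = 0.0201).

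The drugs were also compared with each other. No vehicle library enters this difference, although vehicle libraries enter the estimate of its spread. Fluoxetine libraries were lower than lithium libraries for 11 of the 32 genes and higher for 2, against 7.74% lower and 6.18% higher over all genes tested. The median log2 fold change was -0.077 over the 32 genes and 0.005 over all genes. Of the 11 squalene and sterol enzymes 7 were lower with fluoxetine, namely Ebp (-0.24 ± 0.043, limma, adjusted p = 5.86e-05), Msmo1 (-0.24), Dhcr7 (-0.17), Nsdhl (-0.16), Hsd17b7 (-0.15), Sc5d (-0.14) and Sqle (-0.10). Idi1 (-0.17) and Hmgcs1 (-0.14) were lower among the mevalonate enzymes, and Aacs (-0.20) and Acly (-0.12) among the other targets. Sqle lay close to the threshold (limma, adjusted p = 0.0499) and passed in 15 of 39 fits that left out a single library.

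Ebp had the smallest p-value between the drugs: lowest, median and highest counts were 283, 359 and 433 in fluoxetine libraries, against 351, 416 and 493 in lithium libraries. The fluoxetine median lay near the low end of the lithium range, and 19 of 20 fluoxetine libraries were below the lithium mean of their stratum. The vehicle values of Ebp, 346, 389 and 492, lay between. Lss and Abca1 were higher with fluoxetine than with lithium. Lss had 1162, 1364 and 1497 in fluoxetine libraries, against 1100, 1235 and 1487 in lithium libraries (0.13 ± 0.037, limma, adjusted p = 0.0105). Abca1 had 953, 1262 and 1751 in fluoxetine libraries, against 865, 1037 and 1525 in lithium libraries (0.25 ± 0.079, limma, adjusted p = 0.0286), and its spread within each drug was wide. Insig1 (0.09 ± 0.042) and Stard4 (-0.09 ± 0.047) did not pass between the drugs.

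The drug comparisons were then made within each genotype and sex. Fluoxetine put 12 of the 32 genes lower in HT males, with 3.16% of all genes lower, and 7 lower in WT females, with 1.59% of all genes lower. In HT females 0 of 32 passed, with 10 at an unadjusted p under 0.05, and in WT males 0 passed, with 4 at that level; edgeR gave 0 in both, and DESeq2 gave 0 in HT females and 1 in WT males. In HT females 0% of all genes passed, and 0.85% of all genes passed in WT males. The median log2 fold change of the 32 genes was -0.217 in HT males, -0.150 in WT females, -0.082 in WT males and -0.071 in HT females. The genotype by fluoxetine interaction, averaged over sexes, and the sex by fluoxetine interaction, averaged over genotypes, did not pass for any of the 32. They had 4 and 1 members at an unadjusted p under 0.05, with 0 by edgeR and 0 by DESeq2 in both. A larger fall in HT males and WT females than in the other strata largely cancels in such averages, so these tests cannot decide on it. A genotype by sex difference within fluoxetine is given further below. Over all genes these interactions called 0.0392% and 0.425%. Their smallest p-values were those of Insig2 (-0.19), Fdft1 (-0.23) and Stard4 (-0.24) for genotype and of Acly (0.13), Abca1 (0.25) and Hmgcs1 (0.11) for sex.

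**Figure D3:**
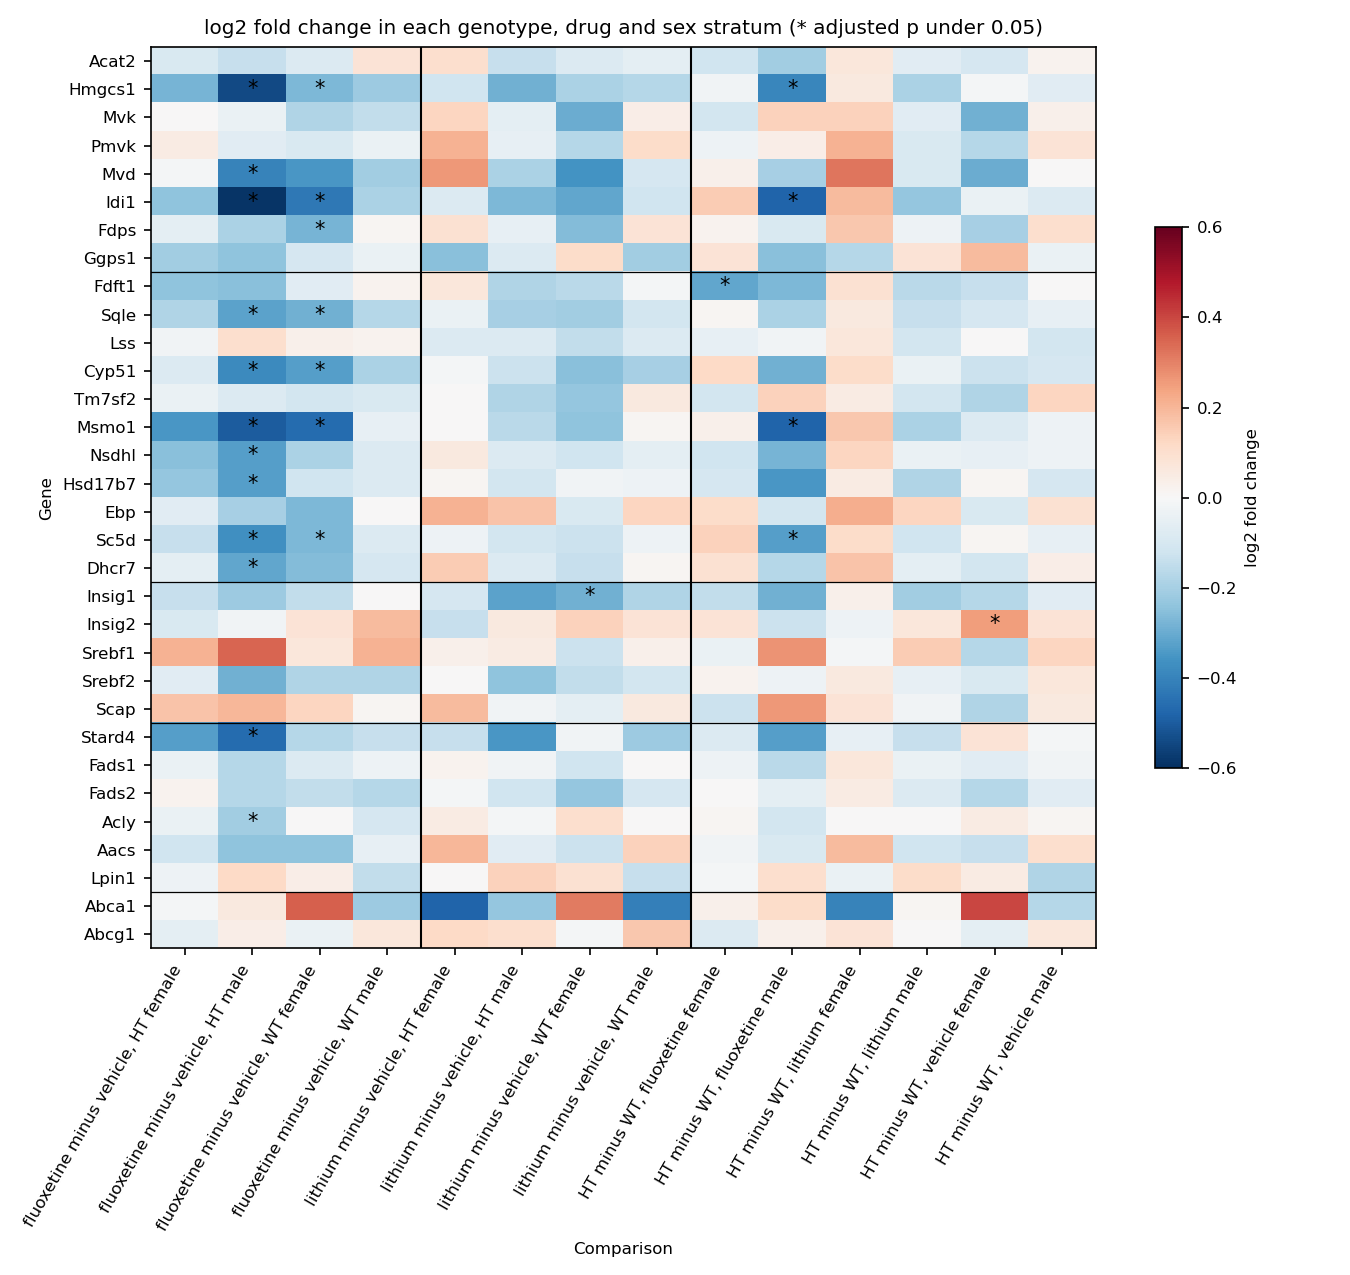
Heat map of log2 fold changes of the 32 genes (rows, by role) in each stratum (columns): fluoxetine minus vehicle, lithium minus vehicle, and HT minus WT; blue is lower and red higher in the group named first, and an asterisk marks an adjusted p under 0.05 (limma). Asterisks stand on 12 genes in HT males and 7 in WT females given fluoxetine, and on 4 genes between HT and WT males given fluoxetine.

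HT males given fluoxetine had Hmgcs1 counts of 8564, 7807, 8088, 6414 and 7623, against 11186, 11833, 10972, 11055 and 10785 in HT males given vehicle. The groups did not overlap, and the difference was -0.54 ± 0.072 (limma, adjusted p = 8.1e-06). Idi1 counts in the same stratum were 1561, 1562, 1465, 944 and 1328 with fluoxetine, against 2002, 2248, 2074, 1862 and 1980 with vehicle (-0.59 ± 0.105, limma, adjusted p = 8.19e-04). Sc5d (-0.37 ± 0.063) and Stard4 (-0.46 ± 0.092) were the others among the 4 smallest p-values, and neither pair of groups overlapped. The other 8 genes called were Msmo1, Sqle, Cyp51, Nsdhl, Acly, Hsd17b7, Dhcr7 and Mvd. Replicate 4 of the fluoxetine group was the lowest library of these groups for all 12 genes called. Without it, 5 genes passed in place of 12, namely Hmgcs1 (-0.48), Idi1 (-0.46), Stard4 (-0.42), Msmo1 (-0.36) and Sc5d (-0.31). With the libraries of the compared groups fitted alone, 5 passed as well.

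WT females given fluoxetine had Msmo1 counts of 1771, 1603, 1765, 1745 and 2162, against 2236, 2620, 2845, 2549 and 2191 in WT females given vehicle. No fluoxetine library reached the lowest vehicle library, and the difference was -0.46 ± 0.107 (limma, adjusted p = 0.00852). Sc5d (-0.27), Sqle (-0.29) and Idi1 (-0.43) were the others with the smallest p-values, and Hmgcs1, Cyp51 and Fdps completed the 7. The count was 3 without WT vehicle female replicate 2, 4 without WT fluoxetine female replicate 4, and 6 without the 3 libraries named above. With the compared groups fitted alone it was 3. In the strata without a call the smallest p-values belonged to Hmgcs1 (-0.28), Stard4 (-0.33) and Msmo1 (-0.35) in HT females, and to Hmgcs1 (-0.22), Insig2 (0.19) and Sqle (-0.17) in WT males.

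Lithium within strata called Insig1 in WT females (-0.29 ± 0.083, limma, adjusted p = 0.0445) and no other of the 32, with 0.694% of all genes lower there. Its counts were 1770, 1678, 1740, 1593 and 1683 in WT females given lithium, against 1953, 2238, 2226, 1987 and 1951 in WT females given vehicle. The groups did not overlap, yet 8 of 10 fits that left out a single library of these groups called none of the 32. The other fits, without WT vehicle female replicate 1 or 5, called 2 genes each. With the compared groups fitted alone, or with the replicate number as a block, none passed, while DESeq2 called 5 and removal of GC content and length trends gave 3. The counts of genes called in HT females, HT males and WT males were 0, with 6, 9 and 6 members at an unadjusted p under 0.05; edgeR gave 0 in each, and DESeq2 gave 1, 3 and 0. The median log2 fold change of the 32 genes was -0.134 in WT females, -0.096 in HT males, -0.030 in WT males and 0.007 in HT females, where 17 of 32 were positive and 3 of the 6 at that level were positive. Over all genes 2.98%, 0.252% and 0.476% were called in these strata. In HT males Hmgcs1 (-0.29), Insig1 (-0.32) and Stard4 (-0.35) had the smallest p-values and adjusted p of 0.0547, 0.0613 and 0.0696 (limma). In HT females these were Abca1 (-0.48), Pmvk (0.21) and Ggps1 (-0.25), and in WT males Abca1 (-0.41), Stard4 (-0.22) and Hmgcs1 (-0.17). Neither lithium interaction passed for any member, each averaged over the other factor as for fluoxetine. For genotype 3 members and for sex 1 had an unadjusted p under 0.05, and edgeR and DESeq2 gave 0. These interactions called 0% of all genes. Their smallest p-values were those of Insig2 (-0.15), Mvd (0.27) and Ebp (0.17) for genotype, and of Stard4 (0.21), Acly (0.09) and Abca1 (0.23) for sex.

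Between genotypes the genes differed little. HT minus WT, averaged over the 6 strata of drug and sex, called Insig1 alone of the 32, as lower, with 0.229% of all genes lower and 0.129% higher. The median log2 fold change was -0.031 over the 32 genes and 0.003 over all genes. Lowest, median and highest Insig1 counts were 1339, 1718 and 2143 in HT libraries, against 1526, 1916 and 2321 in WT libraries. The ranges overlapped broadly, 25 of 29 HT libraries lay below the WT mean of their stratum, and the difference was -0.14 ± 0.034, a fall of 9.6% (limma, adjusted p = 0.0306). The call was lost without the WT vehicle libraries in doubt (male replicate 2 and female replicate 3), with trends over GC content and gene length removed, and without any 1 of 8 single libraries. These were HT fluoxetine male replicate 4, HT lithium female replicate 4, HT lithium male replicate 5, HT vehicle male replicate 3, replicate 5 of WT fluoxetine females and of WT fluoxetine males, WT vehicle male replicate 4 and WT vehicle female replicate 2. Without HT fluoxetine male replicate 5, 2 members passed. Fdft1 (ENSMUSG00000021273, chromosome 14, 63145150 to 63179578, minus strand) and Hmgcs1 had the next smallest p-values and did not pass. Fdft1 had 1595, 2134 and 2648 in HT libraries, against 1902, 2257 and 2969 in WT libraries (-0.13 ± 0.035, limma, adjusted p = 0.0884). Hmgcs1 had 6414, 9390 and 11994 in HT libraries, against 8258, 10365 and 14963 in WT libraries (-0.10 ± 0.030, limma, adjusted p = 0.114).

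Within males given fluoxetine, 4 of the 32 genes were lower in HT than in WT, with 0.297% of all genes lower. They were Hmgcs1 (-0.39 ± 0.072, limma, adjusted p = 0.00446), Sc5d (-0.33 ± 0.063, limma, adjusted p = 0.00671), Idi1 (-0.48 ± 0.105, limma, adjusted p = 0.0284) and Msmo1 (-0.48 ± 0.107, limma, adjusted p = 0.0304). Hmgcs1 counts in WT males given fluoxetine were 10465, 10277, 9877, 9365 and 10422, above all 5 HT libraries given earlier. Sc5d counts were 2282, 2169, 2095, 1725 and 1955 in HT males given fluoxetine, against 2652, 2625, 2468, 2538 and 2507 in WT males given fluoxetine. Neither pair of groups overlapped, but without HT fluoxetine male replicate 4 none of the 32 passed, and the adjusted p of Hmgcs1 was then 0.0889 (limma) with a difference of -0.33 ± 0.072. Without that library and the doubted WT vehicle libraries together, Hmgcs1 and Sc5d passed. With the compared groups fitted alone none passed, with GC content and length trends removed 2 passed, and without the WT vehicle libraries in doubt 10 passed; DESeq2 called 7. The count was 7 without HT fluoxetine male replicate 1, and 2 without HT fluoxetine male replicate 5 or any 1 of WT fluoxetine male replicates 1 to 4.

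In females given fluoxetine none of these 4 enzymes passed. Hmgcs1 was at -0.02 ± 0.072, Idi1 at 0.15 ± 0.105, Sc5d at 0.14 ± 0.063 and Msmo1 at 0.03 ± 0.107. The difference between the sexes was tested as an interaction, female minus male of the HT minus WT difference within fluoxetine, which was added after the strata had been seen. It called 3 of the 32 genes, as higher, with 1.45% of all genes higher. Sc5d differed by 0.47 ± 0.089 (limma, adjusted p = 0.00544), Idi1 by 0.63 ± 0.148 (limma, adjusted p = 0.0175) and Hmgcs1 by 0.38 ± 0.101 (limma, adjusted p = 0.0355). Without HT fluoxetine male replicate 4 alone only Sc5d passed (0.41 ± 0.086, limma, adjusted p = 0.0242), and without HT fluoxetine female replicate 4 the count was also 1. Without HT fluoxetine male replicate 1 or 2, 5 members passed. With the compared groups fitted alone, or with GC content and length trends removed, 1 passed. Without the WT vehicle libraries in doubt 5 were higher and 1 lower, and DESeq2 called 5. The same interaction within vehicle called 0 of the 32 genes, with 5 at an unadjusted p under 0.05, 0 by edgeR, 1 by DESeq2 and 2.9% of all genes called. The smallest p-values were those of Fdps (-0.30), Abca1 (0.57) and Tm7sf2 (-0.30), while Sc5d was at 0.06, Idi1 at 0.05 and Hmgcs1 at 0.06. Idi1 counts show the pattern: 1532, 1462, 1839, 1946 and 1728 in HT females given fluoxetine against 1368, 1479, 1472, 1530 and 1808 in WT females given fluoxetine, while all 5 HT males given above lay below the WT males given fluoxetine, at 1885, 1747, 2010, 1847 and 1944.

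Fdft1 was lower in HT than in WT females given fluoxetine (-0.31 ± 0.085, limma, adjusted p = 0.0345), with 0.582% of all genes lower. Its counts were 1949, 1963, 1595, 1820 and 1850 in HT females, against 2088, 2237, 2676, 2114 and 2313 in WT females, with no overlap. This call was lost without HT fluoxetine female replicate 3, 4 or 5, or WT fluoxetine female replicate 3 or 5, and with the compared groups fitted alone. Insig2 (ENSMUSG00000003721, chromosome 1, 121304353 to 121332589, minus strand) was higher in HT than in WT females given vehicle (0.25 ± 0.067, limma, adjusted p = 0.0208), with 4.54% of all genes higher. Its counts were 1060, 1380, 1160, 1310 and 1195 in HT females, against 1068, 964, 894, 1066 and 1137 in WT females, where 894 belonged to the library that stood against its label. Without that library none of the 32 passed, and the same held without HT vehicle female replicate 2 or 4. Without WT vehicle female replicate 5, 2 members passed, and without HT vehicle female replicate 5 or WT vehicle female replicate 1, 3 passed. With the compared groups fitted alone, or with GC content and length trends removed, none passed, and DESeq2 called 1 higher and 1 lower. The counts called in HT against WT were 0 in lithium females, lithium males and vehicle males, with 4, 4 and 1 members at an unadjusted p under 0.05 and 0 by edgeR and by DESeq2, and 0.00559% of all genes passed in each. The smallest p-values there were those of Pmvk (0.21), Mvd (0.32) and Ebp (0.22), of Hmgcs1 (-0.19), Insig1 (-0.21) and Idi1 (-0.23), and of Lpin1 (-0.18), Tm7sf2 (0.13) and Lss (-0.11), in the same order of strata.

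Females and males did not differ past the threshold for any of the 32 genes, with 3 at an unadjusted p under 0.05 and 0 by edgeR and by DESeq2, while 0.117% of all genes passed. By p-value the leading members were Insig2 (-0.07 ± 0.028), Nsdhl (0.07 ± 0.036) and Srebf2 (0.08 ± 0.038), female minus male. Lowest, median and highest counts of Insig2 were 894, 1137 and 1380 in females, against 1057, 1160 and 1344 in males. Nsdhl, which is X-linked, had 539, 665 and 800 in females, against 462, 640 and 824 in males. Srebf2 had 5110, 6463 and 7627 in females, against 4598, 6099 and 7517 in males. In each case the ranges of the sexes lay almost on top of each other.

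Across the 59 libraries, after the group means were removed, the synthesis enzymes tended to vary together. This is a description with no p, since 2 genes measured in a library share its depth and base composition. The median Pearson correlation was 0.30 over 171 pairs of the 19 synthesis enzymes and 0.22 over all 496 pairs of members, while the median over pairs of 2000 genes drawn from all tested was -0.00. The closest pairs were Mvd with Dhcr7 (0.83), Hmgcs1 with Sc5d (0.82), Hmgcs1 with Idi1 (0.79), Hmgcs1 with Msmo1 (0.76) and Idi1 with Cyp51 (0.76). HT fluoxetine male replicate 4 held the lowest of all 59 values for Hmgcs1, Mvd, Idi1, Sqle, Cyp51, Msmo1, Nsdhl, Hsd17b7, Ebp, Sc5d and Dhcr7. The same held for Insig1 and Stard4. WT vehicle male replicate 2 held the highest for Hmgcs1, Idi1, Ggps1, Fdft1, Sqle, Cyp51, Nsdhl, Hsd17b7 and Sc5d, and for Stard4. It also held the lowest of all 59 values for Srebf1 and Scap. Correlations without these libraries were not computed. Insig1 had a median correlation of 0.54 with the 19 enzymes and Stard4 one of 0.36. Srebf1 had a median of -0.26 with them, lowest with Ggps1 (-0.66), and Srebf2 had 0.22. Ggps1 had -0.69 with Scap. GC content was 40.1% for Ggps1, 58.4% for Srebf1 and 59.1% for Scap, and its part in these correlations was not tested. Tm7sf2 (-0.13) and Ggps1 (-0.07) stood outside the common pattern of the enzymes by their median correlation with the other 18.

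**Figure D4:**
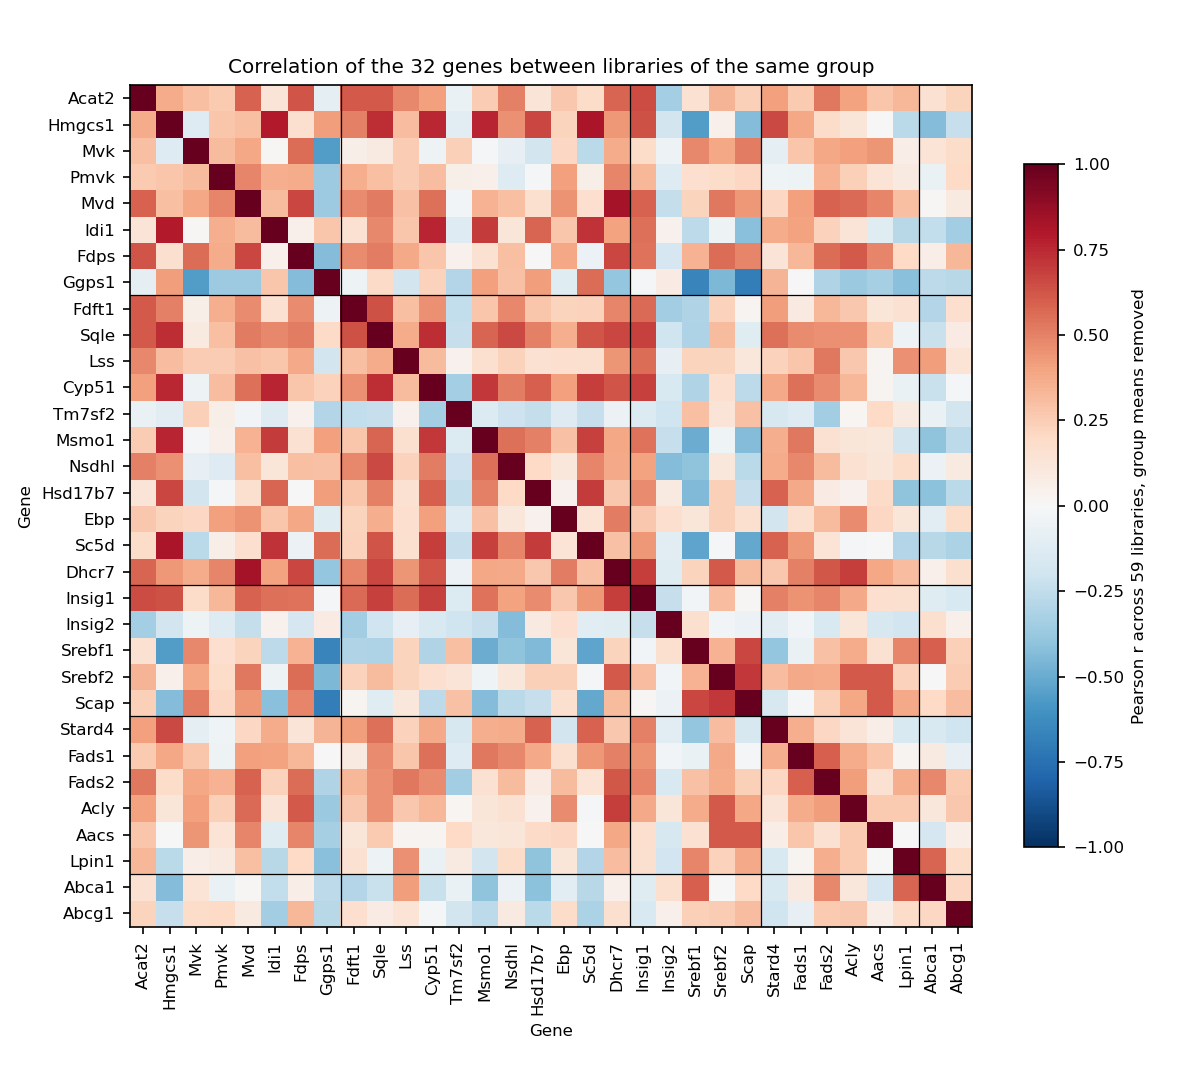
Pearson correlation between the 32 genes across 59 libraries after removal of the group means, with genes ordered by role and lines between roles; red is positive and blue negative. Hmgcs1, Idi1, Sqle, Cyp51, Msmo1 and Sc5d form red blocks (Hmgcs1 with Sc5d 0.82), while Ggps1 is blue with Scap (-0.69) and Srebf1 (-0.66). WT vehicle male replicate 2 held the highest Ggps1 and the lowest Scap and Srebf1 of all 59 libraries.

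A list of 34 other sterol and lipid genes gives the surroundings of the pathway. With fluoxetine 8 were lower and 2 higher, against 6.6% and 6.94% of all genes, and the median log2 fold change was -0.045. Among the lower genes were the cholesterol acyltransferase Soat1 (-0.20), the elongases Elovl6 (-0.27) and Elovl5 (-0.22), Rdh11 (-0.14) and the sterol complex scaffold Erg28 (-0.16). The SREBP-cleaving protease Mbtps1 was among the higher ones (0.13). With lithium 3 were lower and 6 higher, against 5.74% and 7.39% of all genes. Elovl5 (-0.22) and Erg28 (-0.20) were lower, and the acetyl-CoA synthetase Acss2 (0.13), the liver X receptor gene Nr1h3 (0.26), the desaturase Scd1 (0.20), the carboxylase Acacb (0.27), the cholesterol hydroxylase Cyp46a1 (0.14) and the transporter Abca2 (0.17) were higher. Fluoxetine minus lithium gave 10 lower and 3 higher, against 7.74% and 6.18% of all genes. The lower ones included Scd1 (-0.36), Elovl6 (-0.22), Acss2 (-0.18), Soat1 (-0.15) and Nr1h3 (-0.29), and the higher ones were Mbtps1 (0.13), Lbr (0.18) and Pgrmc1 (0.10). HT minus WT and female minus male called 0 of the 34, with 1 at an unadjusted p under 0.05 in each and 0 by edgeR and by DESeq2.

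Markers of cell types that make or use much cholesterol are given beside these results, since in bulk tissue fewer cells of a type and less RNA per cell cannot be told apart. Of 12 oligodendrocyte markers none passed in any averaged comparison, with 0 at an unadjusted p under 0.05 and 0 by edgeR and by DESeq2. Their summed level, lowest, median and highest, was 77461, 137998 and 210441 in fluoxetine libraries and 71626, 119606 and 228121 in lithium libraries, against 71242, 136840 and 294265 in vehicle libraries. Their median log2 fold change was -0.059 for fluoxetine, with 11 of 12 negative, and -0.038 for lithium, with 8 of 12 negative. For HT minus WT, where Insig1 was lower, it was -0.100 with 12 of 12 negative, and the sums were 71242, 129282 and 217974 in HT libraries, against 71626, 144289 and 294265 in WT libraries. In the same comparison 8 of 8 precursor markers (median -0.088), 10 of 10 astrocyte markers (-0.069, with 3 at an unadjusted p under 0.05) and 7 of 7 striatal markers (-0.146) were negative, against 0.003 over all genes, and none passed by limma, edgeR or DESeq2. Other lists in that comparison had 6 of 8 microglial (0.052), 5 of 7 excitatory neuron (0.019) and 3 of 4 choroid plexus markers (0.174) positive. Among endothelial markers 6 of 8 (-0.028) and among inhibitory neuron markers 5 of 6 (-0.027) were negative. The part of oligodendrocytes in the sterol results was not tested.

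Some astrocyte and endothelial markers passed the test, where 6.6% of all genes were lower and 6.94% higher with fluoxetine, and 5.74% lower and 7.39% higher with lithium. Of 10 astrocyte markers, 3 were lower and 2 higher with fluoxetine and 4 lower and 1 higher with lithium, among them the water channel Aqp4 (-0.31 and -0.42) and the gap junction genes Gja1 (-0.18 and -0.21) and Gjb6 (0.17 and 0.30). Their summed level was 99899 to 152611 (median 133470) with fluoxetine and 116013 to 147066 (133855) with lithium, against 94599 to 169398 (140676) with vehicle. Of 8 endothelial markers 4 were lower with each drug, Flt1 (-0.35 and -0.15), Itm2a (-0.25 and -0.26), Cldn5 (-0.24 and -0.21) and Pecam1 (-0.18 and -0.19), and Ly6c1 was higher with lithium (0.16). The endothelial sums were 17871 to 21194 (19157) with fluoxetine and 18682 to 21401 (19667) with lithium, against 18101 to 27269 (19894) with vehicle. Among 8 precursor markers Gpr17 was lower (-0.24) and Cspg4 higher (0.23) with fluoxetine, while with lithium none of the 8 passed (2 at an unadjusted p under 0.05, 0 by edgeR and by DESeq2). Of 8 microglial markers P2ry12 was lower with both drugs (-0.21 and -0.38), and with lithium Cx3cr1 was lower (-0.16) and C1qb higher (0.12). Their part in the sterol results was not tested. Of 7 excitatory and 6 inhibitory neuron markers none passed with fluoxetine, with 2 and 0 at an unadjusted p under 0.05, 1 and 0 by edgeR and 1 and 0 by DESeq2. With lithium the inhibitory marker Pvalb was higher (0.38) and no excitatory marker passed (1 at an unadjusted p under 0.05, 0 by edgeR and by DESeq2). The 7 striatal markers had a median log2 fold change of 0.353 with fluoxetine and 0.410 with lithium with no call, 1 at an unadjusted p under 0.05 in each, 0 and 1 by edgeR and 1 and 1 by DESeq2. Of 4 choroid plexus markers none passed with either drug, with 0 and 1 at an unadjusted p under 0.05, 0 and 2 lower by edgeR and 0 and 2 lower by DESeq2. Their summed level reached 7640 in vehicle libraries (median 234), against 990 with fluoxetine (222) and 559 with lithium (154). The sum of 7640 came from a WT library. In every marker list each gene reached a normalised count of 10 in some library.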

How the data were processed

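RNA of prefrontal cortex from 59 mice was sequenced with a stranded mRNA library kit, per the labels' protocols. The authors deposited one table of normalised counts, a signal in which read counts are divided by a size factor per library. The submitters' processing notes name Salmon 0.11.2, R 3.6.0, DESeq2 1.19.11 and GRCm38, without their roles. The annotation and the strand setting of the counting are not given there. Dividing by the step between values gave whole reads for 100% of values in every library (tolerance 0.01 reads).

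Values were tested as log2(normalised count + 1) with limma 3.58.1 (trend and robust) in R 4.3.3, with 1 mean per group over all 59 libraries. The 17875 genes with a normalised count of at least 10 in at least 5 libraries were tested, all 32 members among them, and 213 were not. Each comparison's p-values had a Benjamini-Hochberg adjustment across all genes tested, with a threshold of 0.05. Fold changes on this scale understate the change of genes with low counts. edgeR 4.0.16 and DESeq2 1.42.0 were run on the recovered reads. Tables were made with Python 3.11.15, pandas 2.3.3 and numpy 2.4.6. Scripts were tested on simulated data. Gene positions are from GENCODE on GRCm38, and symbols were matched for 18077 genes.

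Members past the threshold in an averaged comparison were named. Within strata and interactions up to 4 passing genes with the smallest p were named, or, where none passed, the 3 with the smallest p. Library values were given for the 8 smallest p-values with fluoxetine and 3 each with lithium, genotype and sex. The other values per library shown were chosen after they were seen. Members, marker lists and pathway lists were chosen with earlier results of these data known. The genotype by sex interactions and the fits without 2 or 3 libraries were chosen after seeing the data. Replicate numbers were taken from the labels. Some genes of the pathway list are counted but not reported here by name.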

Additional observations from a re-analysis of the deposited data

Results flagged for a closer look

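Single libraries stood far from the other 4 of their group for 6 of 144 combinations of gene and group, where chance gives about 1 in 20. Sqle was at 1363 in HT fluoxetine male replicate 4, with the others at 1675 to 1784, and Cyp51 was at 1237 in the same library, with the others at 1861 to 1931. In WT vehicle male replicate 2, Sc5d was at 3365 (others 2509 to 2648) and Fdft1 at 2969 (others 2037 to 2255). Stard4 was at 1044 in HT vehicle male replicate 2 (others 941 to 963), and Insig2 was at 1017 in WT lithium female replicate 5 (others 1133 to 1176).

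The HT minus WT difference under fluoxetine differed between females and males for 3 genes by an interaction test. It differed by 0.38 for Hmgcs1, 0.63 for Idi1 and 0.47 for Sc5d on the log2 scale. This test was added after the strata had been seen, and it called 1.45% of all genes higher. The low values of HT fluoxetine male replicate 4 enter each of these differences, and their part beyond the fits without that library was not tested. Without that library only Sc5d of the 32 passed.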

How the results depend on the processing

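Among the members named in the drug, genotype and sex averages, none changed direction under any alternative run. For other results only the counts called were compared. With fluoxetine 14 to 21 genes were lower across alternatives (19 as reported), and with lithium 6 to 9 (6 as reported). Of the 32, 1 was higher with fluoxetine when GC and length trends were removed, and 1 with lithium when the doubted libraries were left out. HT minus WT on average (1 gene) gave 2 with DESeq2 and 0 with GC content and length trends removed, without the WT vehicle libraries in doubt, and without 3 libraries. With DESeq2 the counts were 1 for fluoxetine in WT males (0), 1 and 3 for lithium in HT females and HT males (0 each), 5 for lithium in WT females (1), 7 for HT minus WT in fluoxetine males (4), 2 in vehicle females (1), and 5 and 1 for the genotype by sex interaction in fluoxetine (3) and vehicle (0). With the compared groups fitted alone they were 5 for fluoxetine in HT males (12), 3 in WT females (7), 1 for lithium in HT males, 0 in WT females, 0 for HT minus WT in fluoxetine females, fluoxetine males and vehicle females, and 1 for the interaction in fluoxetine. With GC and length trends removed they were 3 for lithium in WT females, 2 for HT minus WT in fluoxetine males, 0 in vehicle females and 1 for the interaction in fluoxetine. Without the WT vehicle libraries in doubt they were 16 for fluoxetine on average, 14 in HT males and 6 in WT females. Lithium then gave 9 on average, 3 in HT males and 0 in WT females. HT minus WT gave 10 in fluoxetine males and 0 in vehicle females, and the interaction in fluoxetine gave 6. Without 3 libraries they were 8 for fluoxetine in HT males, and 1, 3 and 0 for lithium in HT females, HT males and WT females. HT minus WT then gave 2 in fluoxetine males and 0 in vehicle females. The cause was not tested.

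Leaving out 1 library at a time gave 15 to 20 genes for fluoxetine, 6 to 9 for lithium, 10 to 13 for fluoxetine minus lithium, 0 to 2 for HT minus WT, and 0 to 0 for sex and the 4 drug interactions. Within strata the ranges for fluoxetine were 0 to 0 in HT females, 5 to 14 in HT males, 3 to 8 in WT females and 0 to 0 in WT males. For lithium they were 0 to 1, 0 to 1, 0 to 2 and 0 to 0 in the same strata. For HT minus WT they were 0 to 1 and 0 to 7 in fluoxetine females and males, 0 to 0 in both lithium strata, and 0 to 3 and 0 to 0 in vehicle females and males. The genotype by sex interaction gave 1 to 5 in fluoxetine and 0 to 1 in vehicle.

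With the replicate number as a block, fluoxetine gave 19 genes, lithium 6, fluoxetine minus lithium 13 and lithium in WT females 0. Libraries with the same number had a mean residual correlation of -0.0112, against 0.0028 for other pairs. Of 59 libraries, 4 were closest to their own number. Batches or litters that do not follow the number were not tested. Every member had at least 256 reads in every library.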
